A study of Mus musculus with 6 samples.

Results

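A set of 10 genes of photoreceptor injury signalling was followed in retinas of mice bred to lose Dicer1, the ribonuclease that releases mature microRNAs from their precursors, in their rods. They are the rows of the deposited expression table named Edn2, Ednrb, Lif, Fgf2, Gfap, Stat3, Socs3, Cebpd, Osmr and Il6st, or 10 of 22731 gene symbols, and all 10 were found. The choice names damage signals of photoreceptors, members of the gp130-STAT3 pathway and genes of reactive glia, and it was made with earlier results of these data known. All but Lif, 9 genes, averaged 1 RPKM or more (RPKM are reads scaled to the length of the gene model and to the size of the library) and were tested with the other genes above that level, 12599 in all. The conditional knockouts (cKO) had the genotype Dicerfl/fl, iCre75+, and their control littermates Dicerfl/fl, iCre75-. Both groups were 4 weeks old, on a mixed C57BL/6J - SJL background, and both carried the floxed alleles, so the groups differ by the Cre transgene, which a promoter active in rods drives. Each group had 3 libraries (cKO replicates 2, 3 and 4 and control replicates 1, 2 and 3), and each library pooled poly(A) RNA of 4 mice, with tissue collected between 8 and 10 in the morning. Rods are the cells targeted, while RNA came from the whole retina, including glia, neurons and vessels that keep it.

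In the mouse retina, damage to photoreceptors sets off an exchange between photoreceptors and Müller glia, the radial glia that span the tissue. Glial Lif, a cytokine of the interleukin-6 family, acts through receptor complexes built on gp130 (the product of Il6st), whose Jak kinases activate the transcription factor Stat3. Stressed photoreceptors make the peptide Edn2, which signals to the receptor Ednrb on Müller glia, and reactive Müller glia make the growth factor Fgf2 and the filament protein Gfap. Socs3 and Cebpd are among the genes that Stat3 switches on, and Socs3 shuts the receptor complex down again.

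None of these genes passed the test as higher in cKO retinas, and the largest differences were toward lower levels. Edn2 had a mean of 1.85 RPKM in cKO and 3.87 RPKM in control libraries, and Cebpd of 2.50 and 3.68 RPKM. In both genes the 3 cKO values lay below the 3 control values. Gfap, Fgf2, Lif, Osmr and Socs3 overlapped between the groups, as did Ednrb. No member passed an adjusted p of 0.05 in limma, where 1 gene of the 12599 tested did, or 0.00794%. Edn2 and Cebpd were the 2 members with an unadjusted limma p under 0.05, both lower in cKO, against 3.06% of all tested genes lower at that level. No member was higher at an unadjusted p under 0.05, against 2.65% of all tested genes. With no filter on low values Stat3 was higher and Il6st lower at that level too. A fit by limma voom on read numbers worked back from the RPKM values also passed 0 members. Of the 9 tested members, 3 (Edn2, Cebpd and Il6st) had their cKO values all below the controls, against 5.78% of all tested genes, and 1 (Stat3) had them all above, against 5.91%. With 9 genes these shares rest on few counts. The median log2 difference (cKO minus control) of the 9 was −0.043, beside −0.0050 over all genes tested. In bulk tissue, fewer cells of a type and less RNA per cell cannot be told apart.

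**Figure D1:**
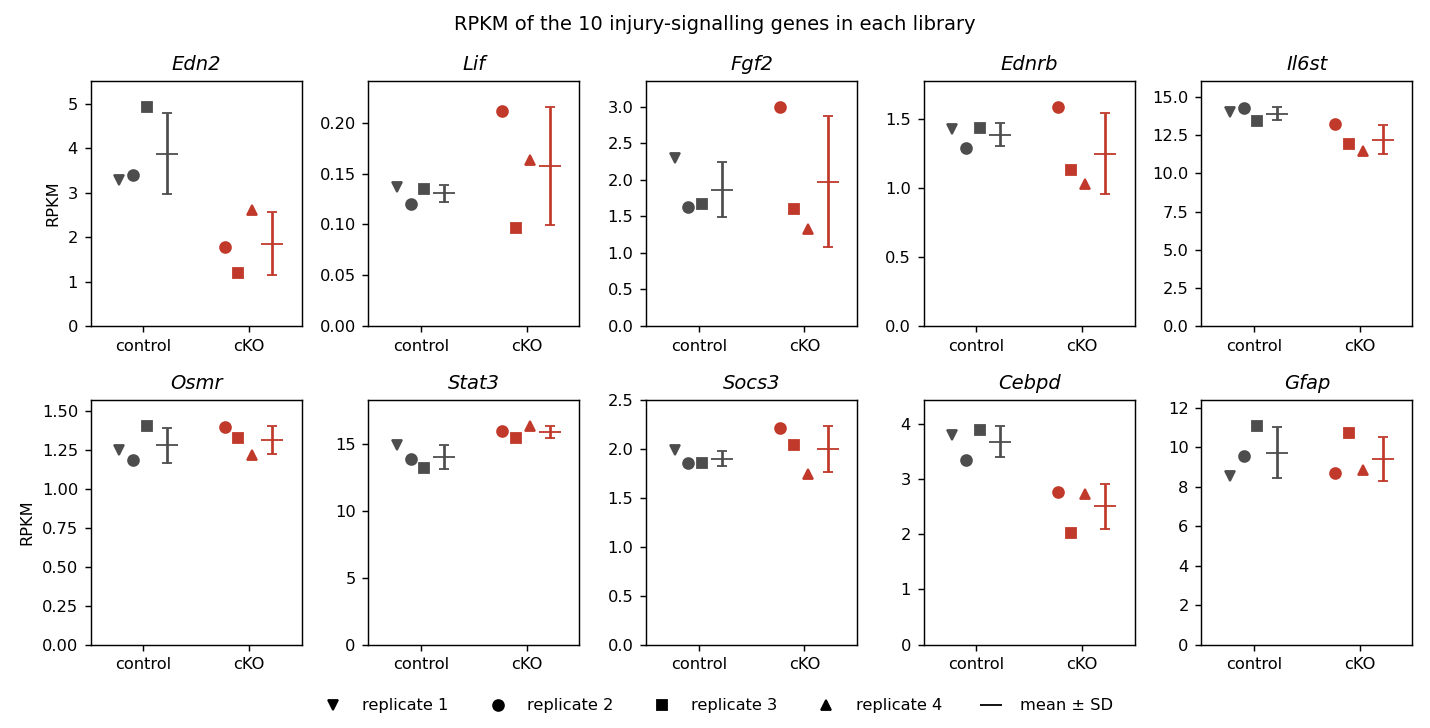
RPKM (vertical axis, from 0) of each gene in the 3 control (grey) and 3 cKO (red) libraries, with a marker shape for each replicate number and the mean ± SD beside the points. The cKO points of Edn2, Cebpd and Il6st lie below all control points, those of Stat3 above them, and the other 6 genes overlap.

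Dicer1 itself was at 8.48, 8.77 and 8.33 RPKM in control replicates 1, 2 and 3 and at 8.02, 7.06 and 7.90 RPKM in cKO replicates 2, 3 and 4, below the controls in each but with a log2 difference of −0.15 that did not pass (limma adjusted p = 0.931). Whole-gene reads of whole retina do not show how far the floxed part was removed in rods. The labelled tissue was borne out by its defining markers, with the 15 rod markers all above the level for the test in these libraries. Between 12344550 reads (cKO replicate 4) and 32954567 reads (control replicate 3) fell in genes of the table, as worked back from the RPKM values. No library was a copy of another, since read numbers within a group varied far beyond sampling noise (chi-square over its degrees of freedom 9.66 to 30.3). The 15 lens markers varied most between libraries, from 348 to 4825 RPKM in sum. They were at 1901, 3572 and 348 RPKM in cKO replicates 2, 3 and 4 and at 4825, 595 and 1947 RPKM in control replicates 1, 2 and 3, with all 15 lower in cKO on the mean log2 scale (median −0.449) and all overlapping. Control replicate 1, where they were highest, held the highest value of no member and the lowest of 1 (Gfap). In cKO replicate 4, where they were lowest, 4 members had their lowest value (Ednrb, Fgf2, Socs3 and Il6st) and 1 its highest (Stat3). The part of lens tissue in the members' values was not tested. Red blood cell markers were near 0, with 4 of 6 at 0 in every library.

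RPKM values are set per length, so levels can be compared between genes. In control retinas Stat3, at 14.0 ± 0.884 RPKM (SD, n = 3), and Il6st, at 13.9 ± 0.414 RPKM, were the most abundant members and overlapped each other. Gfap followed at 9.72 ± 1.29 RPKM. Edn2 (3.87 ± 0.910 RPKM) and Cebpd (3.68 ± 0.287 RPKM) came next and also overlapped, as did Socs3 (1.90 ± 0.0794 RPKM) with Fgf2 (1.86 ± 0.377 RPKM) and Ednrb (1.39 ± 0.0832 RPKM) with Osmr (1.28 ± 0.111 RPKM). Lif was lowest at 0.131 ± 0.00864 RPKM. In cKO retinas the values of Edn2 overlapped those of Socs3, Fgf2, Ednrb and Osmr as well as those of Cebpd.

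Edn2, the endothelin that photoreceptors make under stress, lies on chromosome 4 (120161206 to 120167360, plus strand, in GRCm38). It was measured at 3.29, 3.40 and 4.92 RPKM in control replicates 1, 2 and 3 and at 1.77, 1.19 and 2.60 RPKM in cKO replicates 2, 3 and 4. The highest cKO value, in replicate 4, lay below the lowest control value, so the groups did not overlap. The cKO mean was 47.9% of the control mean. These values rest on 141, 165 and 248 reads in the controls and 54, 53 and 49 reads in cKO, over a gene model of 1244 bases. Counting error alone gives 95% Poisson intervals of 1.93 to 3.44 RPKM for cKO replicate 4 and 2.77 to 3.88 RPKM for control replicate 1, which overlap. The intervals of cKO replicates 2 and 3, with upper bounds of 2.31 and 1.55 RPKM, lay below those of all 3 controls. The log2 difference was −0.92 ± 0.23 (SE), with a 95% interval from −1.44 to −0.39, a limma p of 0.00395 and an adjusted p of 0.681. An exact permutation test of the RPKM (two-sided) gave a p of 0.1, which is as low as 3 against 3 libraries allow. Of the 12599 tested genes, Edn2 was number 9 from the lowest log2 difference and number 73 by limma p.

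The 300 bases around the annotated start of Edn2 are shown first, as those of the member with the largest difference. Those of Gfap and Socs3 follow because, of the 9 members with a window in the RefSeq table (GRCm38.p6), all but Cebpd, these 2 hold the letters TTCNNNGAA, the spacing that STAT proteins bind. The motif reads the same on both strands, and capitals mark it. Each window runs 5′ to 3′ on the gene's strand from 250 bases before to 50 after the start, and 8.30% of all 32851 windows of the table hold the motif. Of the 11525 windows of tested genes, 6.47% hold it, and with 9 member windows the share rests on few counts. The match in Gfap begins 2 bases before the start and that in Socs3 154 bases before it. These starts are those of RefSeq, and both windows lie inside the gene places given here from GENCODE M21. The windows lie at chr4:120160956-120161255 (plus strand) for Edn2, chr11:102897151-102897450 (minus strand) for Gfap and chr11:117969317-117969616 (minus strand) for Socs3.
Edn2: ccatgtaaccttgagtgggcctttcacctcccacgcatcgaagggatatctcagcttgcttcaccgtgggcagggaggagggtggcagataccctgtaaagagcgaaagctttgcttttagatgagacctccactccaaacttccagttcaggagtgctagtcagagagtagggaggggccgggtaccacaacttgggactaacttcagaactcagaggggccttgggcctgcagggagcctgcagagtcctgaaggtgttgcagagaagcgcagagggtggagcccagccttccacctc
Gfap: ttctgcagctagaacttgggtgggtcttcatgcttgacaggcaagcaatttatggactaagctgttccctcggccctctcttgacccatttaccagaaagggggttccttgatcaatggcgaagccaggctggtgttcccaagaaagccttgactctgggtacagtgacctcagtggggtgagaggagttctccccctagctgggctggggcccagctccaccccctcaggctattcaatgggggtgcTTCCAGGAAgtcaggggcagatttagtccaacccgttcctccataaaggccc
Socs3: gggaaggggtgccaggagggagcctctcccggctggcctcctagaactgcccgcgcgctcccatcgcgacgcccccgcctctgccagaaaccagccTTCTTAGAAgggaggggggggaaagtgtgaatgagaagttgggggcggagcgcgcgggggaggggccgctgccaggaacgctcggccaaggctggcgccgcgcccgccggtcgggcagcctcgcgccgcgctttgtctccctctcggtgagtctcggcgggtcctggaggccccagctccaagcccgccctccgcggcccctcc

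Lif, the cytokine that opens the glial response, is on chromosome 11 (4257557 to 4272514 in GRCm38) and was near the limit of detection. It was at 0.137, 0.121 and 0.134 RPKM in the controls, or 19, 19 and 22 reads. In cKO replicates 2, 3 and 4 it was at 0.212, 0.0967 and 0.164 RPKM, or 21, 14 and 10 reads. The cKO values lay on both sides of the controls, and the 95% counting intervals of all 6 libraries overlapped. Below the level set for the test, Lif was fitted with no filter on low values, which gave a log2 difference of 0.057 ± 0.067 (SE) and a limma adjusted p of 0.981. On the log2(RPKM + 0.5) scale a change of so low a gene is understated. A difference in Lif was not detectable at this depth.

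Fgf2, a growth factor that protects photoreceptors, is on chromosome 3 (37348346 to 37410108 in GRCm38). It was at 2.30, 1.62 and 1.67 RPKM in controls and at 2.99, 1.61 and 1.33 RPKM in cKO replicates 2, 3 and 4. One cKO library, replicate 2, was the highest of the 6 and another, replicate 4, the lowest. The log2 difference was 0.021 ± 0.23 (SE), with a 95% interval from −0.52 to 0.56 (limma adjusted p = 0.997), the widest of the 10 members. It was −0.26 without cKO replicate 2, −0.050 without control replicate 2 and −0.035 without control replicate 3, so its sign rested on single libraries. The gene model behind the value is 695 bases long, so Fgf2 rests on between 14 and 55 reads per library. In GENCODE M21 its exons share up to 640 bases with another gene, and the genes involved include Nudt6 on the opposite strand. The libraries carry no strand, and whether the shared bases lie in the gene model of 695 bases was not checked.

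Among the receptors, Ednrb, through which endothelins act on Müller glia, is on chromosome 14 (103814625 to 103844402 in GRCm38). It was at 1.43, 1.29 and 1.44 RPKM in controls and at 1.59, 1.13 and 1.03 RPKM in cKO replicates 2, 3 and 4. One cKO library lay above all controls and the others below them. The log2 difference was −0.12 ± 0.13 (SE), with a 95% interval from −0.42 to 0.18 (limma adjusted p = 0.997). Without cKO replicate 2 it was −0.25.

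Il6st encodes gp130, the signal-carrying chain that the receptors of this cytokine family share, and lies on chromosome 13 (112464070 to 112510086 in GRCm38). It was at 14.0, 14.3 and 13.5 RPKM in controls and at 13.3, 11.9 and 11.4 RPKM in cKO, with between 944 and 3031 reads per library. All 3 cKO values were below the controls, cKO replicate 2 by the least. On the log2 scale the difference was −0.18 ± 0.083 (SE), with a 95% interval from −0.38 to 0.0073, a limma p of 0.0573 and an adjusted p of 0.883. Osmr, the chain that joins gp130 to bind oncostatin M, is on chromosome 15 (6813577 to 6874969). It was at 1.25, 1.19 and 1.40 RPKM in controls and at 1.40, 1.33 and 1.22 RPKM in cKO. Those ranges nearly coincide. The log2 difference of Osmr was 0.028, with a 95% interval from −0.20 to 0.25 (limma adjusted p = 0.997).

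Stat3, the transcription factor that gp130 activates, is on chromosome 11 (100885098 to 100939540 in GRCm38). It was at 14.9, 13.9 and 13.2 RPKM in controls and at 15.9, 15.4 and 16.3 RPKM in cKO replicates 2, 3 and 4. Each cKO value was above all control values. Stat3 had a log2 difference of 0.18 ± 0.080 (SE), with a 95% interval from −0.0064 to 0.36, a limma p of 0.0566 and an adjusted p of 0.883, and the cKO mean was 113.5% of the control mean. Counting error is small here, at between 1106 and 2476 reads per library. Exons of Stat3 share 72 bases with Stat5a on the opposite strand. RNA levels do not report the phosphorylated, active form of the protein.

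Socs3, the feedback inhibitor of gp130 and a direct target of Stat3, is on chromosome 11 (117966079 to 117970047 in GRCm38). It was at 1.99, 1.86 and 1.86 RPKM in controls and at 2.22, 2.04 and 1.75 RPKM in cKO replicates 2, 3 and 4. The cKO values enclosed the controls, with a log2 difference of 0.054 and a 95% interval from −0.17 to 0.28 (limma adjusted p = 0.997). Cebpd, a transcription factor of the acute response that Stat3 induces, is on chromosome 16 (15887286 to 15891031). It was at 3.79, 3.35 and 3.89 RPKM in controls and at 2.76, 2.02 and 2.72 RPKM in cKO, on 295, 295 and 356 reads against 153, 164 and 93. All cKO values of Cebpd lay below all controls, and the cKO mean was 68.1% of the control mean. Its log2 difference was −0.48 ± 0.12 (SE), with a 95% interval from −0.76 to −0.21, a limma p of 0.00386 and an adjusted p of 0.676. The exact permutation p was 0.1, and Cebpd was number 55 from the lowest log2 difference. In GENCODE M21 its exons share 562 bases with Spidr on the opposite strand. Whether these bases lie in the gene model of 2260 bases behind the values was not checked.

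Gfap, the intermediate filament of astrocytes and of reactive Müller glia, is on chromosome 11 (102887336 to 102900912 in GRCm38). It was at 8.52, 9.56 and 11.1 RPKM in controls and at 8.69, 10.7 and 8.81 RPKM in cKO replicates 2, 3 and 4. The cKO values lay within the range of the controls. The log2 difference was −0.043 ± 0.12 (SE), and its 95% interval from −0.32 to 0.23 (limma adjusted p = 0.997) puts the cKO level between 0.80 and 1.18 times that of the controls on the log2(RPKM + 0.5) scale. Whole-retina RNA does not separate the Gfap of astrocytes from that of Müller glia.

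**Figure D2:**
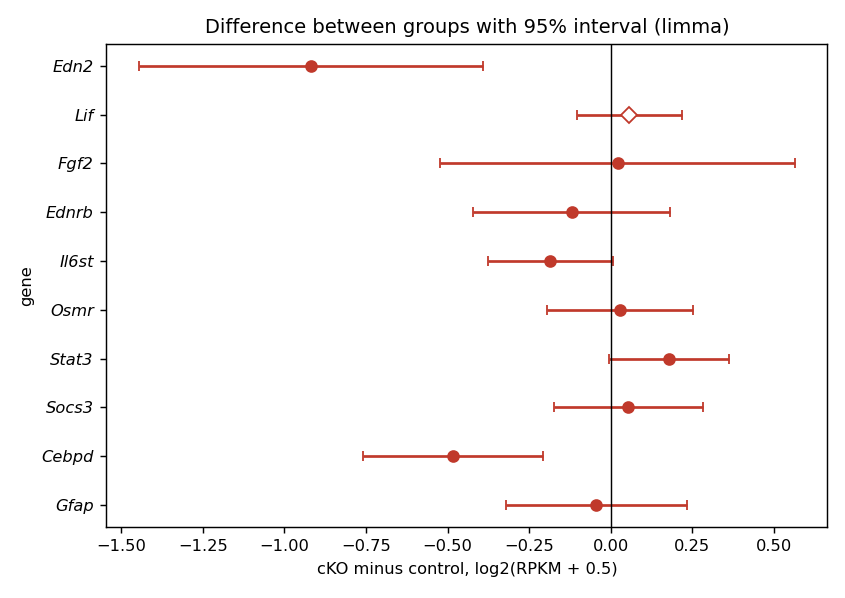
Difference between the group means (horizontal axis, cKO minus control on the log2(RPKM + 0.5) scale) for each of the 10 genes, with points for the limma estimate and bars for its 95% interval. The intervals of Edn2 and Cebpd lie below 0 before any adjustment for the number of genes, and the open diamond marks Lif, fitted with no filter on low values.

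The libraries did not contribute evenly to these spreads. In 7 of the 10 members, cKO replicate 2 held the highest of the 3 cKO values, and it was the highest of all 6 libraries for Ednrb, Lif, Fgf2 and Socs3. How often cKO replicate 2 was the highest of its group over all tested genes was not computed. In that library the summed levels of the pigment epithelium markers (776 RPKM) and of the vascular and pericyte markers (127 RPKM) were also the highest of the 6. Over the other libraries those sums ran from 686 to 740.5 RPKM and from 114 to 120.1 RPKM. In cKO replicate 2 the vascular and pericyte sum held 16.8 RPKM of Acta2, against 5.83 to 12.8 RPKM in the other libraries. The pigment epithelium sum held 225 RPKM of Rlbp1, also a Müller glia marker, which was at 208 to 253 RPKM elsewhere. Its other markers did not all follow the sum. Dct and Pmel were at 117 and 68.7 RPKM in cKO replicate 2, beside 124 and 63.9 RPKM in control replicate 2. Rpe65 and Rgr, at 11.7 and 69.1 RPKM in cKO replicate 2, were higher in cKO replicate 3 (12.5 and 76.7 RPKM). The part of these sums in the members' values was not tested. Control replicate 3 was the highest for Edn2, Gfap, Cebpd and Osmr. Without cKO replicate 2, and likewise without any other single library, Edn2 and Cebpd remained under an unadjusted limma p of 0.05, and Il6st joined them without cKO replicate 2.

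Genes around the members were read from lists of their pathways. The lists follow known membership, and they were chosen with earlier results of these data known. Of the 7 genes of the endothelin system, 6 were tested and 0 passed in limma. Edn1, the vascular endothelin, was at 1.24, 1.02 and 1.03 RPKM in controls and at 1.01, 0.869 and 0.959 RPKM in cKO, all cKO values being lower, by 0.14 on the log2 scale (limma adjusted p = 0.972). Edn3, the third ligand, ranged from 0.546 to 1.73 RPKM within the cKO group and overlapped with the controls. Ednra, the receptor of vascular smooth muscle, did not reach the level for the test, at means of 0.571 (control) and 0.534 RPKM (cKO). The converting enzymes that cut endothelins from their precursors, Ece1 and Ece2, were at 12.2 and 8.97 RPKM in controls and at 12.7 and 9.57 RPKM in cKO. The groups of Ece1 overlapped, and all cKO values of Ece2 lay above the controls. Of the 6 tested genes, 1 lay above and 2 (Edn1 and Edn2) below without overlap, against 5.91% and 5.78% of all tested genes. With 6 genes these shares rest on few counts. Among the 3 endothelins, Edn2 was thus the most abundant in control retinas and the one with the largest difference.

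Of the 10 ligands of gp130, 8 were below the level for the test in these retinas. Il6 had at most 1 read, Il27 1, Osm 3, and Cntf and Ctf2 5 reads in any library. The 2 tested were the cardiotrophin gene Ctf1, at means of 3.62 (control) and 3.85 RPKM (cKO), and Clcf1, at 1.51 and 1.82 RPKM, both with overlapping groups. Of 8 receptor genes 5 were tested and 0 passed in limma. Cntfr, the most abundant of them, which binds ciliary neurotrophic factor, had means of 20.1 (control) and 20.6 RPKM (cKO), and Lifr, the chain that pairs with gp130 for Lif, at 7.53 and 7.25 RPKM. Il6st was the 1 receptor gene of the 5 tested whose groups did not overlap, with cKO below, against 5.78% of all tested genes.

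All 8 genes that carry the signal onward were tested, and 3 of them, Stat3, Stat5b and the kinase gene Tyk2, had cKO values all above the controls, against 5.91% of all tested genes. With 8 genes this share too rests on few counts. Tyk2 was at 5.14, 5.13 and 4.98 RPKM in controls and at 5.83, 5.86 and 5.87 RPKM in cKO, a log2 difference of 0.19 ± 0.069 (SE) with a limma p of 0.0269 and an adjusted p of 0.848. Stat5b had means of 12.3 (control) and 13.2 RPKM (cKO). Ptpn11, a phosphatase gene and the most abundant of the list, was at 24.4 and 25.3 RPKM. Jak1 and Jak2 had means of 21.4 and 5.86 RPKM in controls and of 20.5 and 5.45 RPKM in cKO, both with overlapping groups. The list's median log2 difference was 0.050, with none of the 8 past the adjusted threshold. Of 13 inhibitor genes tested, none passed in limma, with 5 differences above 0 and 8 below it. Pias3, an inhibitor of Stat3 and the most abundant of the list, had means of 38.8 (control) and 42.4 RPKM (cKO), and the phosphatase gene Ptpn1 at 14.6 and 16.3 RPKM, both without overlap. Socs4 and Pias2 lay below the controls without overlap, and the remaining Socs genes tested, Socs2, Socs5, Socs6 and Socs7, overlapped. Thus 2 of the 13 lay above and 2 below without overlap, against 5.91% and 5.78% of all tested genes. With 13 genes these shares also rest on few counts.

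Of 21 genes that Stat3 is known to act on, 16 were tested and none passed in limma, with 6 differences above 0 and 10 below it. Gfap, Stat3, Socs3, Cebpd, Osmr and Il6st are on this list. Its summed level ran from 222.2 to 229.9 RPKM in controls and from 214 to 221.8 RPKM in cKO, narrowly without overlap. The sum weighs abundant genes such as Hif1a and Serpina3n most, and how often list sums separate in this way was not computed. By gene, 2 of the 16 lay above and 2 below the controls without overlap, against 5.91% and 5.78% of all tested genes. Cebpd had the lowest log2 difference and Lcn2, a lipocalin of the acute phase response, the highest. Lcn2 was at 4.63, 4.21 and 5.38 RPKM in controls and at 5.55, 5.89 and 6.66 RPKM in cKO, a log2 difference of 0.32 ± 0.11 (SE) with a limma p of 0.0184 and an adjusted p of 0.848. Junb was at 15.3, 14.3 and 11.8 RPKM in controls and at 11.9, 9.75 and 9.41 RPKM in cKO, with an overlap of 1 library in each group (limma adjusted p = 0.848). Serpina3n, an acute phase gene of reactive astrocytes, had means of 23.4 (control) and 21.9 RPKM (cKO). Hif1a, the most abundant of the list, was at 81.6 and 80.5 RPKM. Lcn2 and Cebpd, both inducible by Stat3, thus had differences of opposite sign.

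Of 26 genes of reactive glia, 19 were tested, with 9 higher and 10 lower means on the log2 scale, a median log2 difference of −0.026 and none past the adjusted threshold in limma. This list holds all members except Il6st. Beyond them, Cp, the copper-carrying ferroxidase ceruloplasmin, was at 17.3, 15.9 and 15.0 RPKM in controls and at 13.6, 12.4 and 11.2 RPKM in cKO. These groups did not overlap, and the log2 difference was −0.36 ± 0.097 (SE) with a limma p of 0.00576 and an adjusted p of 0.701. Vim, the filament of all Müller glia and the most abundant of the list, had means of 81.1 ± 13.4 (control) and 81.9 ± 7.75 RPKM (cKO, SD, n = 3). Of the FGF genes, 7 of 11 were tested, and of these 7 none passed in limma and none was without overlap. Fgfr4, a receptor gene below the level for the test, was at 0.535, 0.579 and 0.439 RPKM in controls and at 0.804, 0.656 and 0.630 RPKM in cKO, all cKO values being above the controls. Fgf1 had means of 13.3 (control) and 12.8 RPKM (cKO) and the receptor gene Fgfr1 at 8.10 and 8.36 RPKM.

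**Figure D3:**
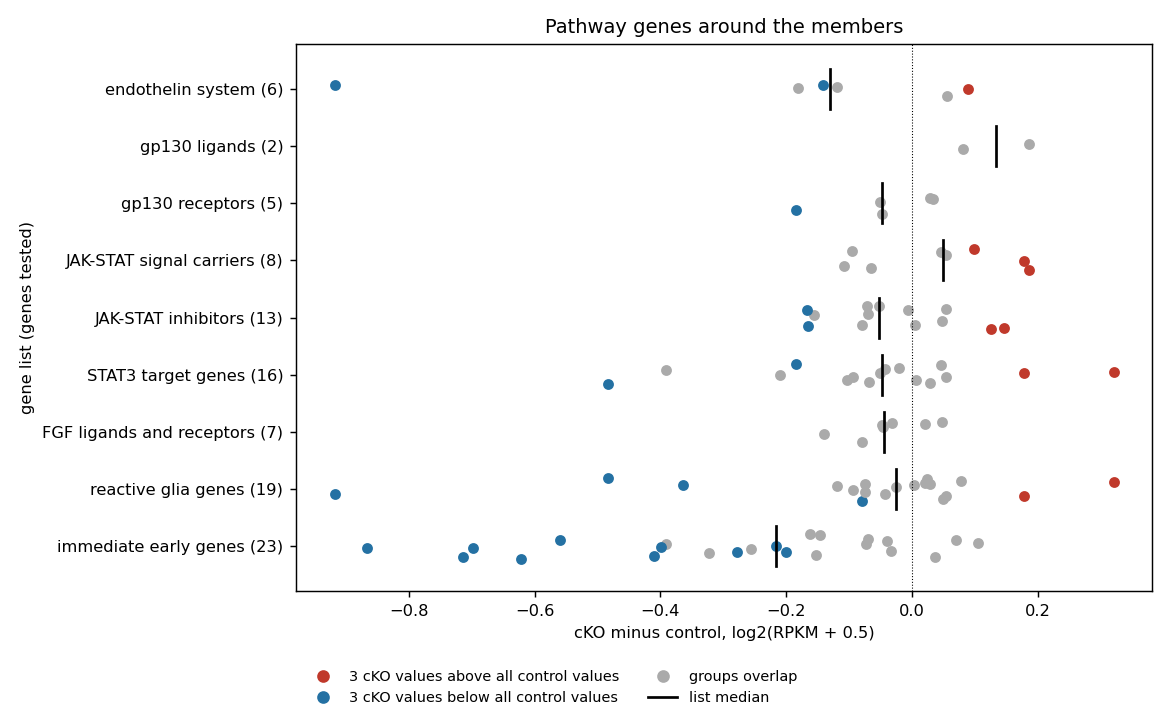
Difference between the groups (horizontal axis, cKO minus control on the log2(RPKM + 0.5) scale) for the tested genes of each list (rows, with the number tested), where each point is a gene, coloured by whether its 3 cKO values lay above (red), below (blue) or among (grey) the control values, and the bar is the list's median. Edn2 lies far left in the endothelin and reactive glia rows, and 10 of 23 immediate early genes have cKO values below all control values.

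Immediate early genes, which cells switch on within minutes of stimulation, were read beside Cebpd and Edn2. Their list was chosen with earlier results of these data known. Of 23 such genes tested, 3 had a higher and 20 a lower level in cKO on the log2 scale, and 13 overlapped between the groups. The other 10 had cKO values all below the controls, against 5.78% of all tested genes, 0 had them all above, and none passed the adjusted threshold in limma. The summed level of the list ran from 324 to 353 RPKM in controls and from 268 to 289 RPKM in cKO. Dusp1 and Fos had the smallest limma p of the list, with control means of 22.2 and 24.9 RPKM and cKO means of 13.4 and 15.0 RPKM (limma adjusted p = 0.0957 and 0.173). The part of these genes in the values of Cebpd and Edn2 was not tested. 

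The summed levels of the cells that make or receive these signals differed little. Müller glia markers ran from 2674 to 3001 RPKM in controls and from 2697 to 2776 RPKM in cKO, with 10 of 20 higher and 10 lower on the log2 scale. Astrocyte markers, Gfap among them and 6 of 7 tested lower, ran from 53.2 to 61.4 RPKM and from 51.1 to 55.9 RPKM. Microglia and macrophage markers ran from 47.4 to 54.4 RPKM and from 45.6 to 50.8 RPKM, with 9 of 12 tested lower. Markers of rods, the cells targeted, ran from 29680 to 35060 RPKM and from 28590 to 31630 RPKM, with 10 of 15 lower, and cone markers from 957 to 1302 RPKM and from 1001 to 1364 RPKM. The summed levels of these 5 cell types overlapped between the groups.

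**Figure D4:**
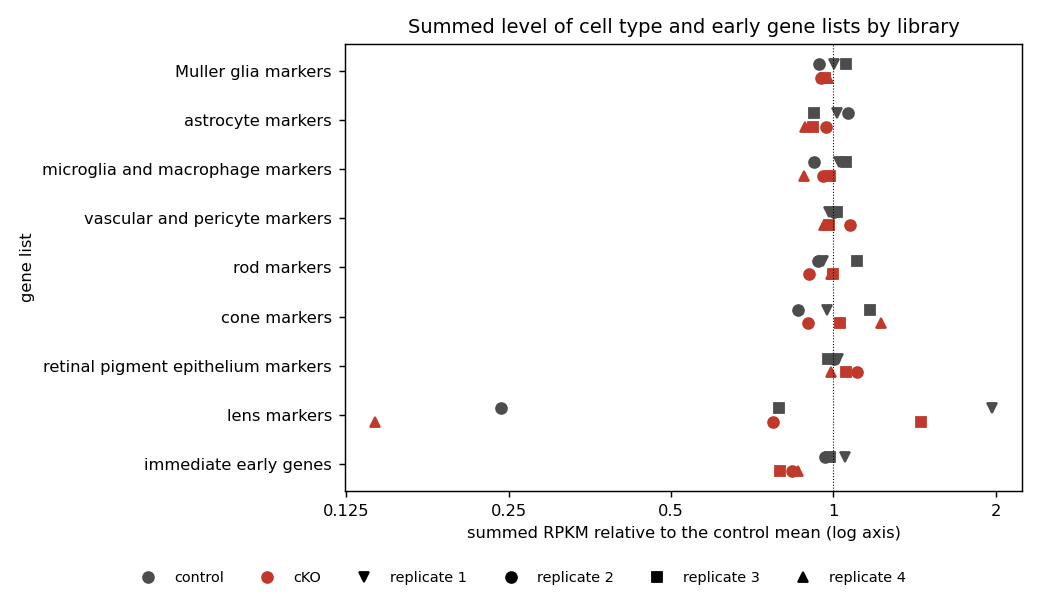
Summed RPKM of each list divided by its control mean (horizontal axis, log scale) in every library, with control libraries in grey, cKO libraries in red and a marker shape for each replicate number. Among the rows drawn here, the red and grey points separate for the immediate early genes, from 268 to 289 RPKM against 324 to 353 RPKM, and the lens markers are the row with the widest spread.

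The genes with the pattern most like each member were taken by the smallest root mean square difference of centred log2 values over the 6 libraries. For Edn2 they were Glb1l3 (0.19), Mlf1 (0.24) and Kpna2 (0.24). Glb1l3, a gene of the beta-galactosidase family, was at 1.53, 1.56 and 1.84 RPKM in controls and at 0.645, 0.622 and 0.965 RPKM in cKO, so that cKO replicate 4 was the highest of its group and control replicate 3 of the other, as for Edn2. For Cebpd they were the enkephalin gene Penk (0.074), the transcription factor gene Klf2 (0.087), which is also on the immediate early list, and Ahrr (0.092). Penk was at 45.1, 48.1 and 49.6 RPKM in controls and at 37.9, 29.1 and 37.3 RPKM in cKO. The nearest gene was Jag1 for Il6st (0.015) and Zfp689 for Stat3 (0.026). Edn2, with the widest range of log2 values over the libraries (1.68), had the most distant nearest genes of the 10.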

How the data were processed

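RNA of mouse retina was sequenced in 6 libraries, grouped by their titles. The authors deposited 1 table of RPKM values per gene and library. The mm9 build, GSNAP and HTSeq are named, per the submitters' processing notes. Versions, annotation and the depth behind the RPKM values were not found there or in the labels. Per the labels' protocols cDNA was made with random primers and no strand mark.

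The test was limma 3.58.1 (R 4.3.3) with a variance trend on log2(RPKM + 0.5), for the 12599 genes that averaged 1 RPKM or more in the table, with Benjamini-Hochberg adjustment over all of them and a threshold of 0.05. Lif was read from the fit with no filter. Members also had an exact permutation test, two-sided, on log2(RPKM + 0.5). Replicates are pools of mice, so p-values measure the spread between pools.

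Reads were worked back because each value is a whole multiple of the RPKM of 1 read. That step was found from 699 genes of at most 200 bases with 1 annotated length in GENCODE M21, and whole reads, within 5e-06 of each deposited value, were found for 19138 of 19140 genes above 0. Library denominators ran from 15128203 to 40523119 reads. The step takes the commonest lowest value as 1 read. Poisson intervals cover counting error only. Both steps were tested on simulated data.

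All 10 members were described. From each list the text names the most abundant gene, the 3 genes with the smallest p, or close relatives of members. Some genes outside this rule are named too, among them Acta2, Dct, Pmel, Serpina3n, Jak1 and Jak2. The members and lists were chosen with earlier results of these data known. Alternatives were other pseudocounts, filters and scalings, no trend, voom on reads, each library left out, and a replicate block. Gene places follow the GRCm38 annotation (GENCODE M21), another build than the authors'. All sample columns were used.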

Additional observations from a re-analysis of the deposited data

How the results depend on the processing

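No member passed in any of the alternatives other than the replicate block, and over those the limma adjusted p of Edn2 ran from 0.213 (without cKO replicate 4) to 1 and that of Cebpd from 0.446 (voom) to 1. Edn2, Ednrb, Stat3, Cebpd and Il6st kept their direction in all 16 alternatives, with log2 differences from −1.23 to −0.70 for Edn2 and from −0.62 to −0.36 for Cebpd. Leaving out 1 library at a time moved Fgf2 between −0.26 and 0.21, Gfap between −0.14 and 0.051, Socs3 between −0.0078 and 0.13, Osmr between −0.0093 and 0.077, and Lif between −0.0028 and 0.12, so their signs are not fixed by these data, and the cause was not tested. Over all genes, 3 passed with no filter, with median-of-ratios scaling and with voom, and 2 with no variance trend, against 1 in the fit as set out. With the replicate block on the numbers 2 and 3, which both groups share, 192 genes passed, among them 1 member and 1 gene of the pathway lists, Edn2 (−1.23, limma adjusted p 0.00246). Under that block Fgf2 and Stat3 were higher at an unadjusted limma p under 0.05. The same 4 libraries without it gave 1 gene and 0 members (Edn2 −1.23, adjusted p 0.639). The labels do not say that the numbers pair animals, and the blocked fit has 1 residual degree of freedom. Deviations from the group mean correlated across genes at 0.465 for the libraries numbered 2 and at −0.052 for those numbered 3. Across numbers they correlated at −0.551 (cKO replicate 2 with control replicate 3) and −0.117 (cKO replicate 3 with control replicate 2). What libraries of the same number share was not tested. The median log2 difference of all genes was 1e-04 with median-of-ratios scaling, −0.0028 with quantile normalization and −0.0263 with voom. Depth limits Lif and Fgf2, which rest on at least 10 and 14 reads per library.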
